A study of Rattus norvegicus with 12 samples.

Results

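Epop and 9 genes of the Polycomb repressor system were examined in rat heart muscle cells that had received different forms of the histone acetyltransferase KAT6A. The 10 genes are Epop, Ezh1, Ezh2, Eed, Suz12, Jarid2, Mtf2, Phf19, Bmi1 and Rnf2, found by symbol among 32883 genes in the count table. All 10 were found once each, and all 10 passed the filter on low counts that left 14063 genes for testing. Epop had been picked because it stood higher with the K815R form of KAT6A than with the wild-type form. Its levels in those groups are therefore given as a description, without a test. The other 9 were taken for their function.

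Polycomb proteins keep genes silent through 2 complexes that modify histones. Polycomb repressive complex 2 (PRC2) methylates lysine 27 of histone H3 through EZH1 or EZH2, with EED and SUZ12 as its core partners. Accessory subunits, among them JARID2, MTF2, PHF19 and EPOP, steer it to sites or change its activity. Polycomb repressive complex 1 (PRC1) ubiquitinates histone H2A through the RING protein RNF2 (RING1B) with partners such as BMI1. In the developing heart PRC2 holds down genes of other lineages, and MYST-family acetyltransferases such as KAT6A are known as counterweights of Polycomb silencing at developmental genes.

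RNA came from primary ventricular cardiomyocytes of neonatal rats. The cells had carried an adenovirus for 2 days, which delivered LacZ, a bacterial gene used as control, or human KAT6A as wild type (WT), K815R (acetylation-resistant) or K815Q (acetylation-mimetic). Each of the 4 groups had 3 libraries, and every cell culture had received a virus, the controls included. The cells kept their own rat Kat6a, and the labels do not say whether replicates came from separate animals or cultures, so p-values measure the spread between these libraries, which may be technical. Gene counts per library ran from 19102048 to 25451686. Levels are in CPM, counts set relative to the library total, after TMM scaling of those totals, and the floor of 3 counts lay between 0.118 and 0.156 CPM. Comparisons used the quasi-likelihood test of edgeR on all 14063 genes. Every adjusted p is Benjamini-Hochberg adjusted over those genes, and a gene was called where it lay under 0.05.

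Rat Kat6a checks the labels. It stood at 45.4, 45.2 and 53.5 CPM in LacZ, at 90.8, 81.9 and 106 in WT and at 102, 122 and 101 in K815R. In the third KAT6A group it stood at 43.3, 49.9 and 45.7 CPM, inside or below the range of LacZ. The rise that a KAT6A virus calls for was thus not measured there, and these libraries are called the libraries labelled K815Q below, with every direction for them resting on the label alone. The counts do not tell human from rat transcripts. Summed markers of cardiomyocytes (7 genes in the table) ran from 27431 to 29723 CPM over the 12 libraries. Summed fibroblast markers (8 genes) ran from 10953 to 12795 CPM, so the cultures also held RNA of other heart cells. Summed smooth muscle and pericyte markers (6 genes) ran from 3619 to 4161 CPM. Endothelial and macrophage markers reached at most 217 and 69.3 CPM. In such bulk samples fewer cells of a type and less RNA per cell cannot be told apart.

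Epop (ENSRNOG00000048187) encodes a protein that binds PRC2 together with elongin B and C and tempers its repression in stem cells. It stood highest in K815R, lowest in WT, and in between in the other groups. In K815R its level was 7.77, 7.72 and 7.17 CPM (7.55 ± 0.334, mean ± SD, n = 3). In WT it was 4.31, 4.18 and 4.51 CPM (4.33 ± 0.166, SD, n = 3). The K815R libraries lay above all 9 others, and the WT libraries below all 9 others.

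The LacZ libraries held 5.53, 4.99 and 5.28 CPM of Epop (5.27 ± 0.270, SD, n = 3). The libraries labelled K815Q held 5.35, 5.02 and 5.16 CPM (5.18 ± 0.164, SD, n = 3). These ranges overlapped. This is the single comparison of Epop that used neither of the groups it was picked on. Its log2 fold change was -0.03 (95% interval -0.25 to 0.20), with an adjusted p of 0.916 in edgeR.

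As a description, K815R exceeded WT in Epop by a log2 fold change of 0.80 (SE 0.108), which is 1.74-fold. It exceeded LacZ by 0.52 (SE 0.102) and the libraries labelled K815Q by 0.55 (SE 0.106). WT differed from LacZ by -0.28 (SE 0.112), and the libraries labelled K815Q differed from WT by 0.26 (SE 0.116). These 5 values share the libraries on which Epop was picked and are given no p. The order from high to low was K815R, LacZ, labelled K815Q, WT, in which LacZ and labelled K815Q did not differ beyond their spread.

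Epop rested on few reads, 81 to 196 per library. Counting error alone gives a coefficient of variation near 9.13% at such counts, whereas the CPM values within groups varied by 4.38%. The replicates were thus closer together than counting error would lead one to find. The model's SE, which includes counting error, is the better guide to the precision than the visible spread. It does not cover the choice of Epop for its difference between K815R and WT, which can make that difference too large. Kat6a was raised in both WT and K815R, which stood at opposite ends for Epop. Since Epop was picked on its difference between these groups, this sets Epop apart from Kat6a only by that choice. Whether Epop follows Kat6a was not tested. Fibroblast markers overlapped between K815R (11056 to 11503 CPM) and WT (10953 to 12005 CPM). Summed cardiomyocyte markers were lower in K815R, at 28197 to 29010 CPM against 29333 to 29655 in WT, and 2 of 8 fibroblast markers were called between them, Pdgfra higher in K815R (0.54 on the log2 scale, adjusted p 7.62e-05) and Postn lower (-0.36, adjusted p 0.00226, both in edgeR). Their part in the Epop difference was not tested.

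**Figure D1:**
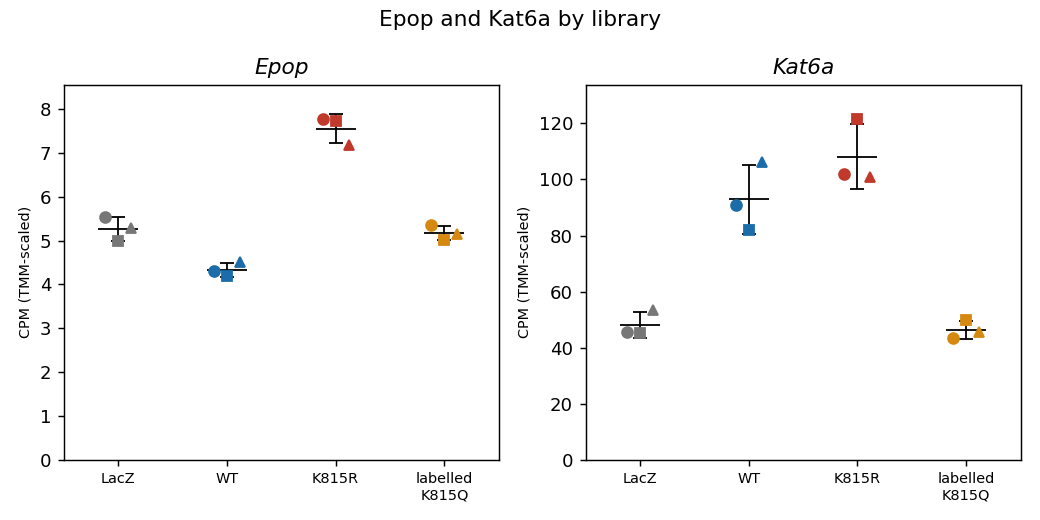
Epop (left) and Kat6a (right) in CPM in each of the 12 libraries, by group; symbols mark replicates 1 to 3 (circle, square, triangle), horizontal lines the mean and bars the SD (n = 3). For Epop the K815R libraries (7.17 to 7.77 CPM) sit above all others and the WT libraries (4.18 to 4.51 CPM) below all others. Kat6a is high in both of these groups, on whose difference Epop was picked.

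The genes whose pattern over the 12 libraries was most like that of Epop were Fdft1, Sdc1, Rps6ka1, Fgfr3 and Snx18, among 10260 genes with a symbol and a mean of at least 5 CPM. Fdft1 makes squalene in cholesterol synthesis, Sdc1 is a cell-surface proteoglycan, Rps6ka1 a kinase downstream of ERK, Fgfr3 a fibroblast growth factor receptor and Snx18 a sorting nexin. Their Pearson correlations of log2 CPM with Epop were 0.94, 0.91, 0.90, 0.89 and 0.88, in that order. Each point of these correlations is a library in which both genes share depth and scaling. The libraries include those of K815R and WT, on which Epop was picked. Each of these genes had its highest mean in K815R and its lowest in WT, so the correlations in part restate that choice. Values with the group means taken away are not given for them. Fdft1 ran from 63.8 to 67.4 CPM in K815R and from 54.5 to 58.2 CPM in WT, so its spread across groups was far narrower in proportion than that of Epop.

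None of the other 9 genes was called between WT, K815R and the labelled K815Q libraries. In K815R against WT, where 2.20% of all tested genes were called, 0 of 9 were called by edgeR, 0 of 9 by DESeq2 and 0 had an unadjusted p under 0.05. Their log2 fold changes ran from -0.26 to 0.11, and their 95% intervals reached from -0.56 to 0.29. In the libraries labelled K815Q against WT, where 1.07% of all genes were called, again 0 of 9 were called by edgeR and 0 by DESeq2, and 0 had an unadjusted p under 0.05. Their log2 fold changes lay between -0.14 and 0.09. In K815R against the libraries labelled K815Q, where 0.363% of all genes were called, 0 of 9 were called by either tool, and 1, Suz12, had an unadjusted p under 0.05. Its log2 fold change there was 0.19.

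Against LacZ, 2 genes were called, both in the libraries labelled K815Q and both lower. They were Jarid2 and Suz12, 2 of the 10 genes tested there, beside 7.85% of all tested genes called in that comparison. The median log2 fold change of the 10 was -0.06, and that of all tested genes 0.01. In WT against LacZ (5.34% of all genes called) 0 of 9 were called by edgeR and 0 by DESeq2, with 2 of 9, the same Jarid2 and Suz12, at an unadjusted p under 0.05. In K815R against LacZ (2.47% of all genes called) 0 of 9 were called by either tool, and 1, Phf19, had an unadjusted p under 0.05. The joint comparison of the 4 groups called 8.13% of all genes and 0 of these 9 with either tool, with 2 of 9 at an unadjusted p under 0.05.

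The numbers of genes called over the whole table, which stand behind these percentages, moved by over 1.5 times when some single libraries were left out. In K815R against WT any of the 6 libraries did so, with 124 to 177 genes called in place of 309. In labelled K815Q against WT the number fell from 151 to 50 without WT replicate 1, to 67 without WT replicate 3 and to 53 without K815Q replicate 1. Between K815R and labelled K815Q it went from 51 to 17 and 25 without K815R replicates 2 and 3, to 11 and 18 without K815Q replicates 1 and 3, and to 98 without K815Q replicate 2. In K815R against LacZ it fell from 348 to 185 and 229 without LacZ replicates 2 and 3, and to 173 and 196 without K815R replicates 1 and 3. In WT against LacZ it fell from 751 to 378 without LacZ replicate 2 and to 379 without WT replicate 2. The joint comparison fell from 1143 to 650 without LacZ replicate 2 and to 753 without K815Q replicate 1. In all of these pairwise fits 0 of the 9 genes were called.

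**Figure D2:**
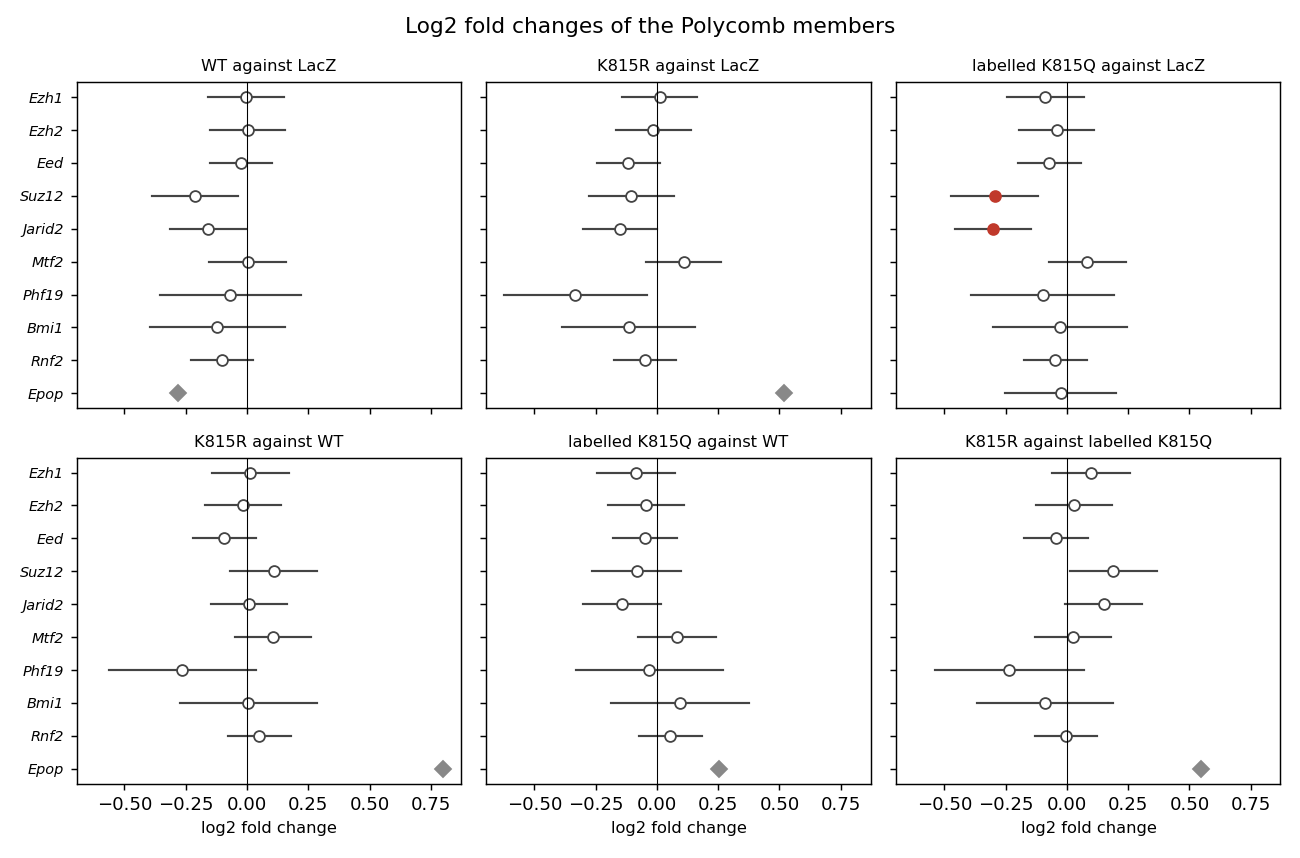
Log2 fold changes of the 10 genes in the 6 comparisons, first-named group minus second; circles carry 95% intervals from edgeR, red circles are called at an adjusted p under 0.05, and grey diamonds are Epop values given without a test. Jarid2 and Suz12 in the libraries labelled K815Q against LacZ are the called points, and most intervals of the other genes cross 0.

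Jarid2 (ENSRNOG00000045918) encodes a DNA-binding subunit that recruits PRC2 and is needed for normal heart development. It stood at 23.8, 28.7 and 27.7 CPM in LacZ (26.7 ± 2.61, SD, n = 3). With the label K815Q it held 20.8, 22.2 and 22.1 CPM (21.7 ± 0.750, SD, n = 3), all below every LacZ library. In that comparison 28.4% of all tested genes had no overlap. The log2 fold change of Jarid2 was -0.30 (SE 0.0752), a fall of 18.8%, with an adjusted p of 0.0165 in edgeR. With single libraries dropped in turn, 3 of 6 fits kept the call. It was lost without LacZ replicate 2 (-0.25, adjusted p 0.0977), without LacZ replicate 3 (-0.27, adjusted p 0.0772) and without K815Q replicate 1 (-0.27, adjusted p 0.10).

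Jarid2 held 23.6, 23.2 and 25.0 CPM in WT and 23.2, 25.5 and 23.5 CPM in K815R. Both groups overlapped the lowest LacZ library and lay above all libraries labelled K815Q. Between those libraries and WT 19.4% of all tested genes had no overlap, and between them and K815R 16.0%. The Jarid2 log2 fold changes of WT and K815R against LacZ were -0.16 and -0.15, neither called (adjusted p 0.240 and 0.371 in edgeR). The libraries labelled K815Q differed from WT by -0.14 (95% interval -0.30 to 0.02), which was not called, so Jarid2 is not shown to be particular to them. A gene named Jarid2l1 overlaps Jarid2 in the RefSeq table (GRCr8), and how reads were split between them is not known.

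Suz12 (ENSRNOG00000058663) encodes the zinc-finger subunit on which PRC2 is assembled. Its levels were 20.4, 23.8 and 24.5 CPM in LacZ (22.9 ± 2.15, SD, n = 3). The libraries labelled K815Q held 16.3, 20.7 and 19.0 CPM (18.7 ± 2.21, SD, n = 3), and the highest of them overlapped the lowest LacZ library. The log2 fold change was -0.29 (SE 0.0855), a fall of 18.4%, with an adjusted p of 0.0375 in edgeR. With single libraries dropped in turn, 2 of 6 fits kept it. It was lost without LacZ replicate 2 (-0.27, adjusted p 0.135), LacZ replicate 3 (-0.24, adjusted p 0.168), K815Q replicate 1 (-0.21, adjusted p 0.234) or K815Q replicate 3 (-0.31, adjusted p 0.0735). With the model restricted to the LacZ and labelled K815Q libraries it was lost as well (-0.30, adjusted p 0.0572).

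In WT, Suz12 stood at 20.8, 19.2 and 19.3 CPM, and in K815R at 20.6, 21.0 and 22.2 CPM. Against LacZ the log2 fold changes were -0.21 and -0.10, with adjusted p of 0.159 and 0.642 in edgeR. Jarid2 and Suz12 varied together across libraries, with the highest Pearson correlation of log2 CPM among the 45 pairs of the 10 genes (0.81, 12 libraries). After the group means were taken away it was 0.60. All pairs together ran from -0.65, for Epop and Phf19, to 0.81. After the group means, which include those Epop was picked on, were taken away, the value for Epop and Phf19 was 0.02.

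The libraries labelled K815Q differed from LacZ in more than these genes. Summed cell-cycle genes stood at 545 to 621 CPM there and at 670 to 760 CPM in LacZ. Summed macrophage markers stood at 63.0 to 69.3 CPM against 46.2 to 61.0 in LacZ, and cardiomyocyte markers at 28280 to 29723 against 27431 to 28116 CPM, while fibroblast markers overlapped (11906 to 12795 against 11811 to 12679 CPM). Of the 7 tested cardiomyocyte markers 1, Pln, was called higher, of the 8 fibroblast markers 2, Postn and Tcf21, and of the 8 macrophage markers 0, all by edgeR. DESeq2 called 2, 3 and 1 of these lists, with Tnni3, Col1a2 and Mrc1 in addition. Of the 6 smooth muscle and pericyte markers edgeR called 0 and DESeq2 called 1, Cnn1. Their part in the Jarid2 and Suz12 results was not tested.

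The promoters of Jarid2 and Suz12 are shown because both genes were called in the same comparison, and that of Ezh2 because it is known to be driven by E2F in dividing cells. Each is the RefSeq promoter of build GRCr8, from 250 bases before to 50 after the gene start, 5′ to 3′ on the gene's strand. Capitals mark an E2F-type word (TTTCCCGC, TTTCGCGC, TTTGCCGC or TTTGGCGC), CCAAT or TATAAA, each searched on both strands, and no 2 marked words overlap.
Jarid2, chr17:20161921-20162220, minus strand: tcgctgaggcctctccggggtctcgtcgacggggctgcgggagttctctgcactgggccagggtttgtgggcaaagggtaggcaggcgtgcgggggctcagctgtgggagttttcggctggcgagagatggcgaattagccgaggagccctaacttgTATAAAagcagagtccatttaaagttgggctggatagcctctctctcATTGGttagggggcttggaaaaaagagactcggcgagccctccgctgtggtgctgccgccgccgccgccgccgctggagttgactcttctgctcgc
Suz12, chr10:65464719-65465018, plus strand: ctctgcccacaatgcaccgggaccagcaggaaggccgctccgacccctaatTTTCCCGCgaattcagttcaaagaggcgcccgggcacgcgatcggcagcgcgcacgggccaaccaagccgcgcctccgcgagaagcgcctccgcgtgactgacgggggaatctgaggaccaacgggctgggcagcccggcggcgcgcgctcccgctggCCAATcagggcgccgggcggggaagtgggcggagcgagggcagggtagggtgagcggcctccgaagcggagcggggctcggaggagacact
Ezh2, chr4:77687134-77687433, minus strand: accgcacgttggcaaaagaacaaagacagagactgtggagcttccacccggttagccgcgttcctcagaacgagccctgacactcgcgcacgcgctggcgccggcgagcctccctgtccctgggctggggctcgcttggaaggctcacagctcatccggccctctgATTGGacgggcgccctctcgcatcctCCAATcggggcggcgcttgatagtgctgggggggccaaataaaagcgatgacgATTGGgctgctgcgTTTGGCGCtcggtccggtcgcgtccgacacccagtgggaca

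The Suz12 promoter holds 38 CpG, an E2F-type word and a CCAAT. That of Jarid2 holds 22 CpG, a CCAAT and a TATAAA, and none of the E2F-type words. The Ezh2 promoter holds 30 CpG, 3 CCAAT and an E2F-type word. Of the 8 of these genes whose promoter is listed, 4 hold an E2F-type word (Ezh2, Mtf2, Phf19 and Suz12), 4 a CCAAT and 1 a TATAAA. Among all 33469 listed promoters, 2.14%, 37.5% and 14.2% hold them, and the median promoter has 7 CpG. A match describes the letters only and shows no binding.

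The PRC2 enzymes showed no called difference between the groups. Ezh2 (ENSRNOG00000006048), the form of dividing cells, stood at 31.5 ± 1.61 CPM with LacZ, 31.6 ± 1.12 with WT, 31.3 ± 3.67 with K815R and 30.6 ± 0.756 in the libraries labelled K815Q (means with SD, n = 3). K815R held both its lowest and its highest library (27.4 and 34.7 CPM, with 31.7 between). Its log2 fold changes over the 6 comparisons ran from -0.04 to 0.03. Against LacZ its value in the libraries labelled K815Q was -0.04 (95% interval -0.20 to 0.11). In that comparison 18 of 30 tested cell-cycle genes were called lower, with a list median of -0.36, beside 701 of all 14063 tested genes called lower.

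Ezh1 (ENSRNOG00000020336), the enzyme that prevails in non-dividing cells, held 20.2, 19.7 and 20.0 CPM in LacZ and 19.4, 19.9 and 20.5 in WT. In K815R it held 18.2, 21.4 and 20.7 CPM, and in the libraries labelled K815Q 17.8, 18.2 and 20.4. All 4 groups overlapped, and its largest difference was 0.10 on the log2 scale, for K815R against the libraries labelled K815Q. The ratio of Ezh2 to Ezh1 counts within a library was 1.58 ± 0.0847 with LacZ, 1.58 ± 0.0799 with WT, 1.57 ± 0.251 with K815R and 1.63 ± 0.144 in the libraries labelled K815Q (means with SD, n = 3). Ratios of counts are not ratios of molecules, since gene length was not accounted for.

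Eed (ENSRNOG00000017509), the core subunit that reads trimethylated lysine 27, stood at 31.8, 35.7 and 33.3 CPM in LacZ and at 31.1, 30.4 and 31.4 CPM in K815R. The K815R libraries lay below all LacZ and all WT libraries (32.0, 33.9 and 33.1 CPM). Of the 9 genes other than Epop, 2 had no overlap between K815R and LacZ and 1 between K815R and WT. Among all tested genes 18.7% and 19.0% had none. The log2 fold changes of Eed were -0.12 against LacZ (95% interval -0.24 to 0.01) and -0.09 against WT (-0.22 to 0.04), neither called. The libraries labelled K815Q overlapped every group, at 30.8, 32.8 and 32.3 CPM.

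Among the accessory subunits, Phf19 (ENSRNOG00000018874), a Polycomb-like reader of methylated lysine 36, was lowest in K815R. It held 2.57, 2.91 and 2.90 CPM there, against 3.39, 3.83 and 3.40 in LacZ, with no overlap. In that comparison 18.7% of all tested genes had no overlap. The log2 fold change of Phf19 was -0.33 (95% interval -0.62 to -0.04), which was not called (adjusted p 0.274 in edgeR). WT stood at 3.60, 2.89 and 3.61 CPM and overlapped both groups. The libraries labelled K815Q, at 3.48, 3.20 and 3.23 CPM, lay above K815R, a comparison in which 16.0% of all tested genes had no overlap. Phf19 had 50 to 86 reads per library, the fewest of the 10 genes, so its intervals are among the widest.

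Mtf2 (ENSRNOG00000000075), another Polycomb-like subunit that binds CpG-rich DNA, was called in no comparison. It held 16.3, 16.3 and 16.8 CPM in LacZ and 15.8, 16.7 and 17.0 in WT. K815R held 18.8, 16.7 and 18.0 CPM, and the libraries labelled K815Q 16.8, 18.6 and 17.0. Its log2 fold changes against LacZ were 0.00 for WT, 0.11 for K815R and 0.08 for the label K815Q, and in each of these comparisons the groups overlapped.

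The PRC1 genes showed no called difference either. Rnf2 (ENSRNOG00000002454), the catalytic RING protein, stood at 45.1 ± 2.38 CPM with LacZ, 42.0 ± 2.24 with WT and 43.5 ± 2.12 with K815R (means with SD, n = 3). The libraries labelled K815Q held 43.6 ± 1.63 CPM (SD, n = 3). Its log2 fold changes ran from -0.10 to 0.05, with SE near 0.06 in each comparison. Bmi1 (ENSRNOG00000016585), a PRC1 subunit known for holding down the Cdkn2a locus, varied most between replicates, by 14.0% within groups.

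Most of that spread lay in the libraries labelled K815Q, where Bmi1 stood at 8.36 CPM in replicate 1 and at 13.2 and 12.1 CPM in the others. LacZ held 11.4, 10.4 and 12.4 CPM, WT 9.32, 10.8 and 11.4, and K815R 9.78, 10.3 and 11.6. Against LacZ the value of the libraries labelled K815Q was -0.03 (95% interval -0.30 to 0.25), and without K815Q replicate 1 it was 0.14. The same library held the lowest Suz12 and the lowest Jarid2 of the 12, and without it the number of all genes called against LacZ was 360 in place of 1104. That number was 418 without LacZ replicate 2, 507 without LacZ replicate 3 and 733 without K815Q replicate 3.

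**Figure D3:**
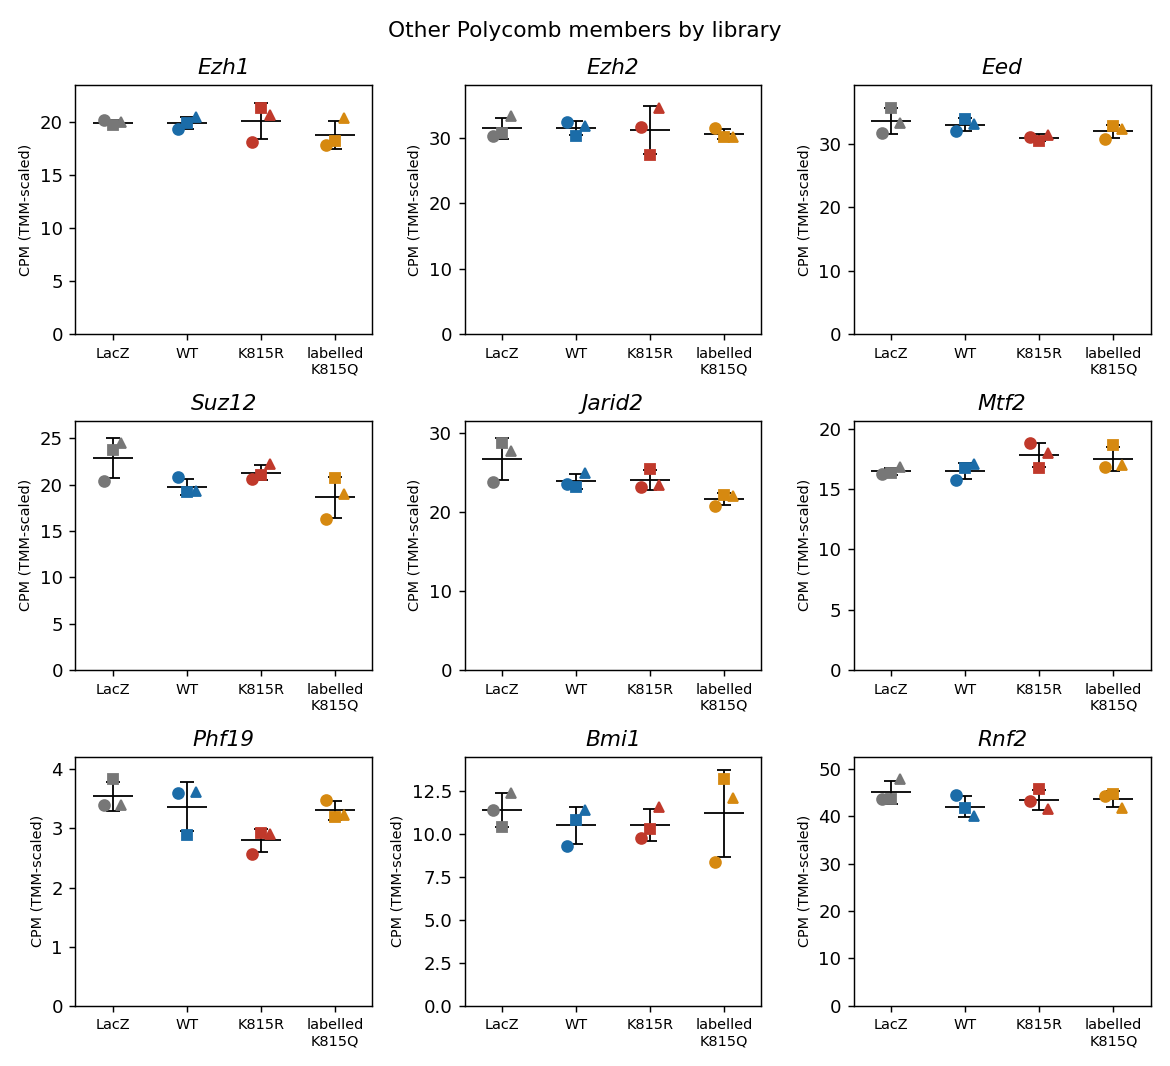
CPM of the 9 genes other than Epop in each of the 12 libraries, by group; symbols mark replicates 1 to 3 (circle, square, triangle), horizontal lines the mean and bars the SD (n = 3). Groups overlap in most panels; the low circle for Bmi1 among the libraries labelled K815Q is 8.36 CPM, and Phf19 in K815R (2.57 to 2.91 CPM) lies below LacZ.

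The remaining subunits were described from lists of PRC2, variant PRC1 and opposing complexes. Of 5 other PRC2 genes tested, 1 was called in any comparison: Phf1, the third Polycomb-like subunit, was higher in WT (27.2, 26.7 and 27.9 CPM) than in LacZ (24.7, 22.8 and 19.9 CPM). Its log2 fold change was 0.28 (SE 0.0757, adjusted p 0.0293 in edgeR). With single libraries dropped, only the fit without LacZ replicate 1 kept that call (1 of 6), and the value ran from 0.20 to 0.35.

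Of 16 variant PRC1 genes, 3 elongin genes and 8 trithorax genes, 0 were called in any comparison by edgeR. At an unadjusted p under 0.05 there were up to 4 variant PRC1 genes, 0 elongin genes and up to 4 trithorax genes per comparison. DESeq2 called 1 of these, the methyltransferase Kmt2a, in labelled K815Q against LacZ and against WT.

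Among 10 genes of the lysine 27 demethylases and the complex that removes ubiquitin from H2A, Foxk2 was called lower than LacZ by edgeR in WT, K815R and the labelled K815Q libraries. FOXK2 is a forkhead factor that tethers the BAP1 deubiquitinase. It stood at 62.0, 62.5 and 63.9 CPM in LacZ, between 53.6 and 55.8 with WT, between 54.4 and 55.5 with K815R and between 54.8 and 57.2 with the label K815Q, each below all LacZ libraries. Among all tested genes 24.6%, 18.7% and 28.4% had no overlap with LacZ in these groups. The log2 fold changes of Foxk2 were -0.20, -0.19 and -0.16, with adjusted p of 0.0186, 0.0346 and 0.0473 in edgeR. These 3 comparisons share the LacZ libraries. With single libraries dropped, 2, 0 and 0 of 6 fits kept the call, and the values stayed between -0.21 and -0.14. In WT the call was lost without LacZ replicate 2 or 3 or WT replicate 2 or 3 (adjusted p up to 0.0744), and in the others without any single library (up to 0.123 in K815R and 0.185 with the label K815Q). Upper-quartile scaling and fits of 6 libraries also lost the latter 2 calls (adjusted p 0.0520 and 0.0777 in K815R, 0.0613 and 0.0722 with the label K815Q). With the label K815Q the call was lost with DESeq2 (0.0551) and with no filter (0.0731) as well.

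Genes known as Polycomb targets elsewhere were described from a further list. Of 20 listed, 14 were tested and 6 (Isl1, Pax6, Hoxa5, Hoxa9, Hoxb4 and Hoxd9) were below the filter on low counts. Against LacZ, 1 of the 14 was called higher with WT, 3 with K815R and 5 with the label K815Q, beside 5.34%, 2.47% and 7.85% of all genes called in either direction, and 0 were called lower, all by edgeR. DESeq2 called 0, 3 and 5. The list medians were 0.11, 0.22 and 0.21 on the log2 scale, beside medians of all tested genes of 0.01, 0.00 and 0.01. Against WT, 2 were called higher with K815R and 2 with the label K815Q, beside 2.20% and 1.07% of all genes called. Between K815R and labelled K815Q 1, Cdkn2b, was called lower in K815R, beside 0.363% of all genes called. These are edgeR calls, and DESeq2 called 2, 3 and 1.

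Foxc1 and Foxc2, forkhead factors of cardiovascular mesenchyme, were called against LacZ by edgeR in K815R (Foxc1) and in the libraries labelled K815Q (Foxc2). Foxc2 in K815R against LacZ missed the threshold in edgeR (0.47, adjusted p 0.0512) and was called by DESeq2. Between K815R and labelled K815Q neither gene was called (adjusted p 0.133 and 0.314 in edgeR). Foxc1 stood at 8.49, 8.82 and 9.17 CPM in K815R, against 6.36, 5.08 and 5.82 in LacZ and 6.33, 6.51 and 5.98 in WT. Its log2 fold change was 0.62 against LacZ (adjusted p 0.00113), kept whichever library was dropped (6 of 6 fits), and 0.49 against WT (adjusted p 0.0128, both in edgeR), kept in 4 of 6. The second call was lost without WT replicate 3 or K815R replicate 3, with values over the 6 fits of 0.46 to 0.52 and adjusted p of up to 0.0644.

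Foxc2 stood at 21.0, 16.4 and 14.6 CPM in the libraries labelled K815Q, against 11.4, 8.86 and 10.0 in LacZ. The log2 fold change was 0.78 (adjusted p 6.66e-04 in edgeR), kept whichever library was dropped (6 of 6 fits). It also exceeded WT, by 0.63 (adjusted p 0.0158 in edgeR), kept in 2 of 6 such fits and lost without any of the WT libraries or K815Q replicate 1 (values of 0.47 to 0.74). Irx3, an Iroquois factor of the conduction system, exceeded LacZ in the libraries labelled K815Q by 0.43 (adjusted p 0.00143, kept in 6 of 6 fits) and in K815R by 0.29 (adjusted p 0.0426, both in edgeR). In K815R 1 of 6 fits, the one without LacZ replicate 1, kept the Irx3 call, with values of 0.26 to 0.34.

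Cdkn2a, the textbook target of BMI1, was named after its values had been seen. It stood at 2.72, 2.63 and 2.91 CPM in LacZ and at 3.60 to 4.69 CPM in all 9 other libraries. Among all tested genes 24.6%, 18.7% and 28.4% had no overlap with LacZ in WT, K815R and labelled K815Q. All of these comparisons share the LacZ libraries. The log2 fold changes of Cdkn2a against LacZ were 0.49 with WT, 0.57 with K815R and 0.57 with the label K815Q, all called (adjusted p 0.0423, 0.0241 and 0.0151 in edgeR). It had 59 to 104 reads per library, and with single libraries dropped 0, 1 and 4 of 6 fits kept the call, with values between 0.45 and 0.63. In WT it was lost without any single library (adjusted p up to 0.150), in K815R without any LacZ library or K815R replicate 1 or 2 (up to 0.102), and with the label K815Q without LacZ replicate 2 or K815Q replicate 3 (up to 0.0828). With DESeq2 the calls in WT and in K815R were lost (adjusted p 0.154 and 0.0886), and that in WT also with no filter (0.0645) and in a fit of the 6 libraries alone (0.0602). The table gives Cdkn2a as a single gene, so its p16 and p19 transcripts are not separated. Cdkn2b, of the same list, was called against LacZ by neither tool. It had an unadjusted p under 0.05 in edgeR against LacZ only with the label K815Q. Bmi1 against LacZ was -0.12 with WT, -0.12 with K815R and -0.03 with the label K815Q, none of them called. Whether Bmi1 has a part in the Cdkn2a values was not tested.

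**Figure D4:**
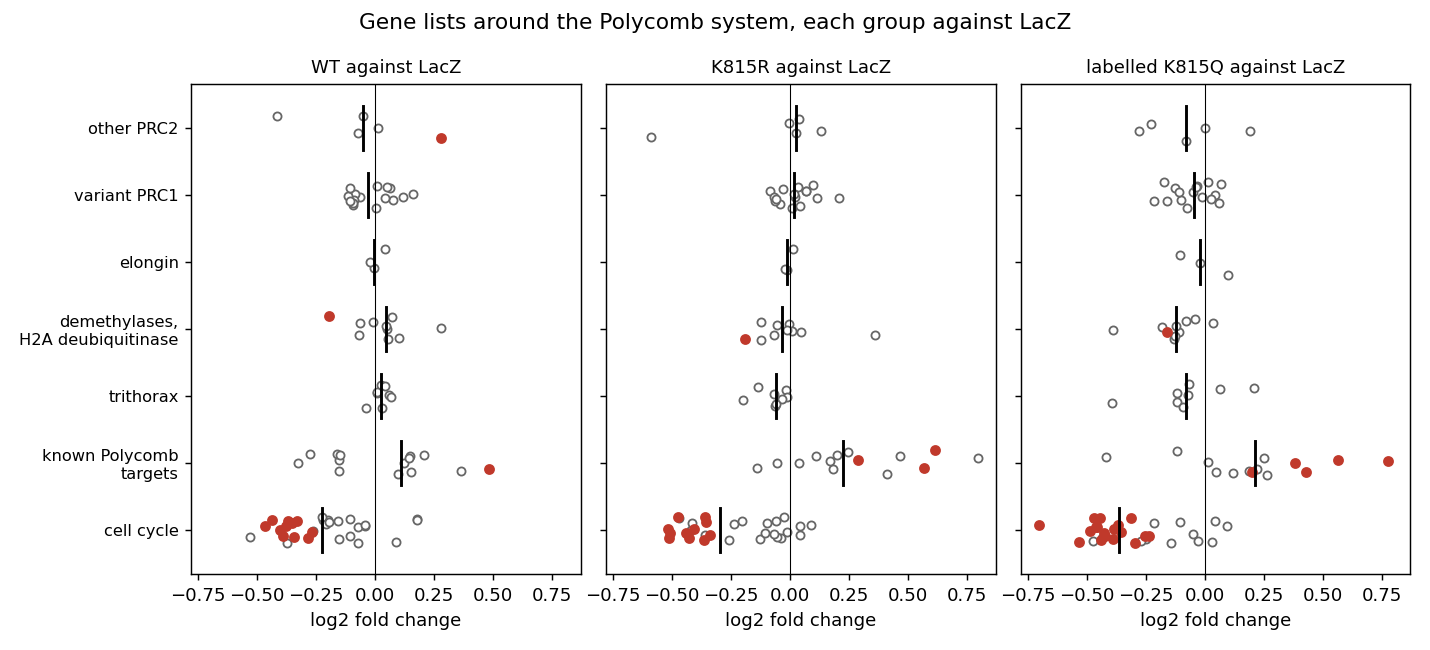
Log2 fold change of every tested gene of 7 lists in each KAT6A group against LacZ; each circle is a gene, red circles are called at an adjusted p under 0.05 by edgeR, and black bars are list medians, with vertical jitter for display only. Cell-cycle genes lie mostly to the left in all panels. Known Polycomb targets lie mostly to the right in the K815R and labelled K815Q panels, while the lists of Polycomb subunits centre near 0.

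The cell-cycle list was called lower than LacZ in 11 of 30 genes with WT, 11 with K815R and 18 with the label K815Q (12, 10 and 17 by DESeq2). Of all 14063 tested genes, edgeR called 477, 244 and 701 lower in these comparisons. Among WT, K815R and labelled K815Q 0 cell-cycle genes were called by either tool, with 0, 6 and 6 at an unadjusted p under 0.05 for K815R against WT, for labelled K815Q against WT and between K815R and labelled K815Q. The lowest adjusted p were those of Mki67, Mcm3 and Tpx2, a proliferation marker, a replication licensing subunit and a spindle factor, whose log2 fold changes in labelled K815Q against LacZ were -0.46, -0.42 and -0.43 (adjusted p 2.07e-04, 0.00207 and 0.00267 in edgeR). The part of the target and cell-cycle genes in the Jarid2 and Suz12 results was not tested.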

How the data were processed

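The authors deposited 1 table of raw read counts per Ensembl gene for the 12 libraries, with symbols. The submitters' processing notes name Trimmomatic 0.39, HISAT2 2.2.1, HTSeq 0.6.1, edgeR and build Rnor_6.0; the annotation and strand setting are not given in the sources used here. Counter lines that name no gene stayed out: 11.7% to 12.9% of reads lay in no feature and 25.6% to 26.9% aligned to more than 1 place, so a gene with similar copies lost some of its reads. The labels describe poly(A)-selected, strand-specific libraries; overlapping genes (Ezh2 with Cul1, Ezh1 with a long non-coding RNA, in the RefSeq table of GRCr8) are uncertain.

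The low-count filter was filterByExpr (at least 10 counts in enough libraries, total at least 15), and scaling was TMM. The 12 libraries entered a single model with a mean per group in edgeR 4.0.16 (R 4.3.3). Tests were robust quasi-likelihood tests, with Benjamini-Hochberg adjustment over all 14063 genes. Correlations used log2 CPM with a prior count of 2. No pair of replicates agreed within sampling noise (chi-square per degree of freedom 4.54 to 8.74). The members and lists were chosen with earlier results of these data known. Named genes were the 10 members, of each other list the called genes or, beyond 3, the 3 with the lowest adjusted p, and the 5 genes most correlated with Epop. Cdkn2a and Cdkn2b were named outside this rule. Marker lists are given mainly by counts and sums. The list of canonical PRC1 genes is not reported here. Of the listed genes, Lcor, Ezhip, Kmt2c, Kmt2d, Ccnb2, E2f1, Ttn and Pecam1 were not analysed here. Intervals cover counting error and the spread between libraries, as the model estimates them. The floor is 3 counts relative to the scaled library total and covers no error. The procedure was run on simulated counts with the same spread for every gene and changes only in K815R. Its outcome is not given here. As alternatives, scaling was by RLE or upper quartile, the filter was dropped or raised to 10 counts in each library, DESeq2 1.42.0 replaced edgeR, replicate number was added as a block, and models held only the 2 groups compared or lacked 1 library. A model without the libraries labelled K815Q was added after the data were seen.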

Additional observations from a re-analysis of the deposited data

How the results depend on the processing

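Over the alternatives run, the number of the 9 or 10 genes called was kept in 90 of 100 refits. Most of these refits were of comparisons with 0 calls, so this number says little about the calls made. The libraries labelled K815Q against LacZ were the only comparison with calls. There the 2 calls became 1 with only the 2 groups compared in the model or without K815Q replicate 3. They became 0 without LacZ replicate 2, LacZ replicate 3 or K815Q replicate 1. Fewer libraries enter these fits. In the test for any difference among the groups, 0 became 2 with no filter on low counts, 1 with the replicate number as a block, and between 0 and 2 with single libraries left out (2 without LacZ replicate 1, 1 without K815R replicate 2 or K815Q replicate 2); the cause was not tested. Same-numbered libraries of different groups showed no strong pairing, with correlations of deviations from -0.13 to 0.12, over 0.1 in 1 of 18 pairs. These ran from 0.00019 to 0.12 among WT, K815R and labelled K815Q, and from -0.13 to 0.028 with LacZ. Of 12 libraries, 4 correlated best with their own number. Such values do not settle whether same-numbered libraries share a weaker effect. With the replicate block the genes called over the whole table went from 151 to 232 in labelled K815Q against WT and from 51 to 86 in K815R against labelled K815Q, and the block changed no call of the 10 genes in the 6 pairwise comparisons; of the other named genes it lost Foxk2 in labelled K815Q against LacZ (adjusted p 0.0558). With no filter on low counts those whole-table counts were 423 and 307, that of K815R against LacZ 600 (from 348), that of K815R against WT 553 (from 309) and that of any difference 2036 (from 1143). K815R against labelled K815Q gave 105 with DESeq2 and 85 in a fit of the 6 libraries alone. A model without the libraries labelled K815Q called 0 of the 9 genes in each of the 3 comparisons it allows and for any difference.

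Values near 0 changed sign, all of them uncalled. In WT against LacZ, Mtf2 was -0.0044 with RLE scaling, -0.0074 with no filter, -0.00037 with at least 10 counts in every library and -0.0044 with DESeq2, against 0.00 as reported. Ezh2 there was -0.0040 with RLE scaling, -0.0070 with no filter and -0.0040 with DESeq2, and Ezh1 0.0061 with upper-quartile scaling. Rnf2 in K815R against labelled K815Q was 0.0011 with no filter. In the fits that left out a library, the log2 fold changes in WT against LacZ ran from -0.022 to 0.034 for Mtf2, -0.12 to 0.026 for Phf19, -0.023 to 0.016 for Ezh1, -0.024 to 0.044 for Ezh2 and -0.063 to 0.019 for Eed. In K815R against LacZ they ran from -0.038 to 0.075 for Ezh1 and -0.096 to 0.077 for Ezh2. In labelled K815Q against LacZ they ran from -0.062 to 0.010 for Epop, -0.068 to 0.0023 for Ezh2 and -0.16 to 0.14 for Bmi1. In K815R against WT they ran from -0.037 to 0.042 for Jarid2, -0.034 to 0.079 for Ezh1, -0.096 to 0.075 for Ezh2 and -0.073 to 0.070 for Bmi1. In labelled K815Q against WT they ran from -0.13 to 0.024 for Phf19, -0.16 to 0.0064 for Suz12 and -0.040 to 0.27 for Bmi1. In K815R against labelled K815Q they ran from -0.012 to 0.075 for Mtf2, -0.054 to 0.12 for Ezh2, -0.26 to 0.047 for Bmi1 and -0.042 to 0.030 for Rnf2. Depth limits Phf19 and Epop most, with 50 to 196 reads per library.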
